A study of Caenorhabditis elegans with 12 samples.

Results

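Wild-type Caenorhabditis elegans kept for 12 h at 25 °C were compared with wild-type worms kept at 15 °C, to describe the transcripts that differed after this spell of warmth. The comparison used 6 of the 12 arrays of the series, 3 for each temperature, chosen by their titles alone and not by any measured value. Both groups were adults of the laboratory wild type, strain N2 (Bristol), raised on plentiful food at 15 °C. One group was collected at 15 °C, and the other was moved to 25 °C as young adults and collected 12 h later. The 6 remaining arrays were N2 worms taken 3 h after the same move and daf-2(e1370) worms, which carry a mutation in the insulin-like receptor, taken 12 h after it. The labels name no 15 °C group held for the same 12 h, and the age at collection is not given. An effect of 12 h at 25 °C and an effect of 12 h of further adult life therefore cannot be told apart in these data.

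C. elegans does not regulate its body temperature, so a move between cool and warm culture changes the temperature of every cell. Warmth can activate the transcription factor HSF-1, which drives genes for chaperones that hold or refold other proteins. It also alters the membrane lipids, the food intake and the rate of egg laying of the worm. The intestine carries much of the worm's digestion, defence against microbes and removal of foreign compounds, through secreted lysozymes and proteases, antimicrobial peptides, and enzymes that oxidise or conjugate lipophilic molecules. An adult hermaphrodite also holds developing embryos and oocytes, and RNA from the whole animal includes theirs.

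Each array carried 43603 distinct probes, and those well above background made up between 55.4% and 60.4% on the 4 arrays from sets A and B, against 80.7% and 82.5% on the set 1 pair. The titles name the replicates A, B and 1, and each of these sets was 1 slide. Set 1 was scanned on another day than sets A and B. Arrays of one temperature held the same place on all 3 slides, so an effect of place cannot be told apart from one of temperature. In the source names sets A and 1 share the number 1, and the labels do not say whether replicates were separate cultures, so p-values here reflect only how much these arrays vary, which may be technical. The 6 arrays correlated with each other at 0.918 to 0.983 over 13225 genes. The first principal component of these 6 arrays held 54.9% of the variance and placed the set B arrays, at 76 and 51, apart from the other 4, which lay between −64.4 and 4.9.

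Signals below are on the log2 scale with the array's 75th percentile subtracted, so that 0 is the signal of a probe brighter than 75% of all probes, and per-array values are listed in the order of sets A, B and 1. A gene was called changed when the two-sided limma test gave an adjusted p under 0.05 after the Benjamini and Hochberg method over all genes. Of 13481 genes tested, 355 changed (2.63%), of which 249 were higher after 12 h at 25 °C (1.85%) and 106 were lower (0.786%). At least a 2-fold change was found for 190 of the higher and 70 of the lower genes. The higher genes had a median log2 change of 1.30 (range 0.55 to 4.23), and their median signal went from −2.95 at 15 °C to −1.48 at 12 h. The lower genes had a median log2 change of −1.18 (range −3.57 to −0.55), and their median signal went from −0.02 to −1.18. Genes that fell were thus in general brighter at 15 °C than genes that rose. Part of that contrast was fixed by the choice, as genes were picked by their change and needed clear signal in only 1 group. At 12 h the medians were −1.18 for the lower and −1.48 for the higher genes. The median over all genes was 0.03. The 2 groups did not overlap for any of the 355 genes, beside 20.7% of all genes tested, 12.8% higher and 7.93% lower. All 6 arrays were well above background for 276 of the 355, namely 182 higher and 94 lower genes.

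The number of changed genes rested strongly on how the replicate sets entered the fit. With the replicate block, in which each set has its own mean, 1020 genes changed (7.57%), 686 higher (5.09%) and 334 lower (2.48%), and these included all 355. These shares, and 1.85% higher and 0.786% lower without the block, are the ones to set beside the list counts below. When single 15 °C arrays were left out the counts were 137 (set A), 204 (set B) and 234 (set 1), and when single 12 h arrays were left out they were 132 (set A), 129 (set B) and 203 (set 1). Of the 355 calls, 100 were kept each time a single array was left out, 74 of them higher and 26 lower. With all of set A or all of set B left out, limma called 0 genes, beside 997 and 1838 genes at an unadjusted p under 0.05, and with only sets A and B in the fit 281 genes changed.

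**Figure D1:**
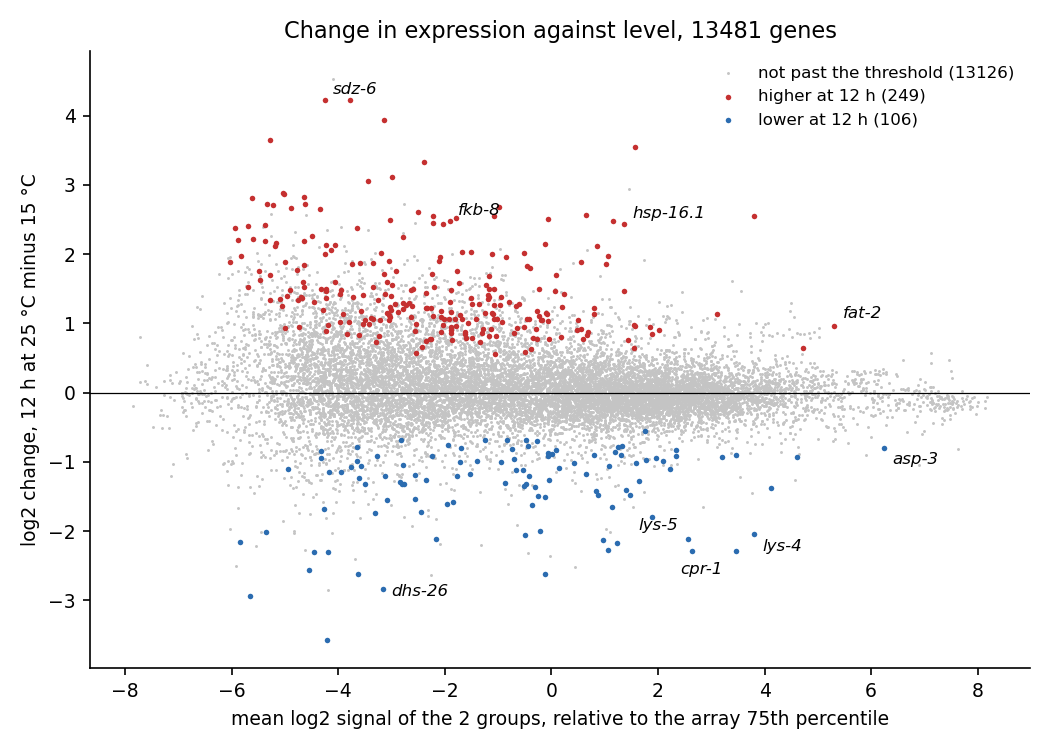
Log2 change of each gene, 12 h at 25 °C minus 15 °C, against its mean log2 signal over both groups; red points are the 249 genes that were higher and blue points the 106 that were lower at an adjusted p under 0.05. Higher genes lie mainly on the dim side of the plot, and bright genes that fell include lys-4, cpr-1 and asp-3.

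Small heat shock proteins of the hsp-16 family, chaperones that bind unfolding proteins, had 3 rises and 0 falls among 6 tested genes after 12 h: hsp-16.1, hsp-16.41 and hsp-16.48. Of all genes, 1.85% rose and 0.786% fell. The log2 signal of hsp-16.1 was −0.33, 0.67 and 0.12 at 15 °C and 2.45, 2.58 and 2.72 at 12 h. All 3 warm arrays lay above all 3 cool ones, a 5.39-fold rise (log2 change 2.43 ± 0.26, SE, n = 3; adjusted p = 0.00185). For hsp-16.41 the values were −1.58, −0.20 and −0.12 at 15 °C and 1.63, 1.57 and 2.61 at 12 h, a 5.94-fold rise (adjusted p = 0.0332). For hsp-16.48 they were −1.14, 0.82 and 0.08 against 2.14, 2.23 and 2.82, a 5.58-fold rise (adjusted p = 0.0214). The 15 °C array of set A was the lowest for each of these genes. It was also the lowest for hsp-16.2, at −6.08 against −2.39 and −3.95 in the other sets, and the log2 change of hsp-16.2 was 2.73 ± 0.83 (SE; adjusted p = 0.124), which did not pass. For hsp-16.21 the log2 change was −0.00 (adjusted p = 1), and for hsp-16.20 it was −1.28 (adjusted p = 0.139, or 0.0225 with the replicate block), a gene well above background on 2 arrays at 15 °C and 1 at 12 h. With the block the family had 3 rises and 1 fall. The hsp-16 paralogs resemble each other in sequence, and how much of a probe's signal comes from its paralogs was not measured.

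Of 23 cytosolic heat shock chaperones tested, 3 rose, 1 fell and 19 did not pass, and the median log2 change of the list was −0.03, beside 0.03 over all genes. The member that fell was hsp-12.6, a small heat shock protein known to be a target of the factor DAF-16, from −3.29, −2.90 and −2.81 to −4.33, −4.53 and −3.85 (2.36-fold lower; adjusted p = 0.0204). The inducible Hsp70 gene hsp-70 had signals of −4.10, −0.71 and −1.50 at 15 °C and −2.70, −3.40 and −2.25 at 12 h, which overlap (log2 change −0.68 ± 0.71, SE; adjusted p = 0.765). The constitutive Hsp70 gene hsp-1, one of the brightest chaperones, had a log2 change of −0.16 ± 0.14 (adjusted p = 0.693). Leaving out single arrays gave between 1 and 3 rising and between 0 and 1 falling chaperones, and the replicate block gave 3 and 2. None of 20 genes of the unfolded protein response of the reticulum was called (median 0.21), and hsp-4, the reticulum's inducible Hsp70, had a log2 change of 0.15 ± 0.14 (adjusted p = 0.737). With the replicate block 2 of the 20 rose, among them xbp-1, the transcription factor of that response (adjusted p = 0.0353, against 0.221 without the block). For hsp-6, the mitochondrial Hsp70, the log2 change was −0.52 ± 0.17 (adjusted p = 0.162), and 0 of 10 genes of the mitochondrial response were called.

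Of the 12 largest rises among genes with a symbol that were well above background on all 6 arrays, 9 lay outside the hsp-16 family. The gene hmit-1.1 encodes a transporter of myo-inositol, an osmolyte, and is known to respond to salt stress. Its signal was −4.40, −3.96 and −4.48 at 15 °C and −1.60, −1.80 and −1.95 at 12 h, a 5.62-fold rise (log2 change 2.49 ± 0.26, SE; adjusted p = 0.00161). Its paralog hmit-1.2 rose as well, with a log2 change of 1.08 ± 0.22 (adjusted p = 0.0332), while the third member, hmit-1.3, had −0.31 ± 0.21 (adjusted p = 0.568). For fkb-8, a member of the FK506-binding prolyl isomerase family, the signal was −3.36, −2.91 and −3.16 at 15 °C and −0.97, −0.56 and −0.48 at 12 h, a 5.57-fold rise (adjusted p = 0.00094). Its other probe had a log2 change of 1.30. The remaining 7 tested fkb genes were not called.

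The gene anmt-3, named as an amine N-methyltransferase, rose 5.71-fold, from −1.59, −0.89 and −1.47 to 1.40, 1.38 and 0.81 (adjusted p = 0.00135), and its 2 other probes had log2 changes of 2.67 and 2.79. Among membrane proteins, best-26, of the bestrophin anion channel family, rose 5.42-fold (adjusted p = 0.00786) and sto-4, of the stomatin family, rose 3.92-fold, from −0.18, 0.32 and 0.08 to 1.99, 2.04 and 2.1 (adjusted p = 0.00102). The alpha tubulin gene tba-9 rose 4.44-fold and the mucin-like gene mul-1 rose 5.87-fold, from −3.57, −4.27 and −2.67 to −1.43, −1.48 and 0.06. In mul-1 and in ugt-43, a conjugating enzyme that rose 4.07-fold, set B was the lowest set at both temperatures and set 1 the highest.

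**Figure D2:**
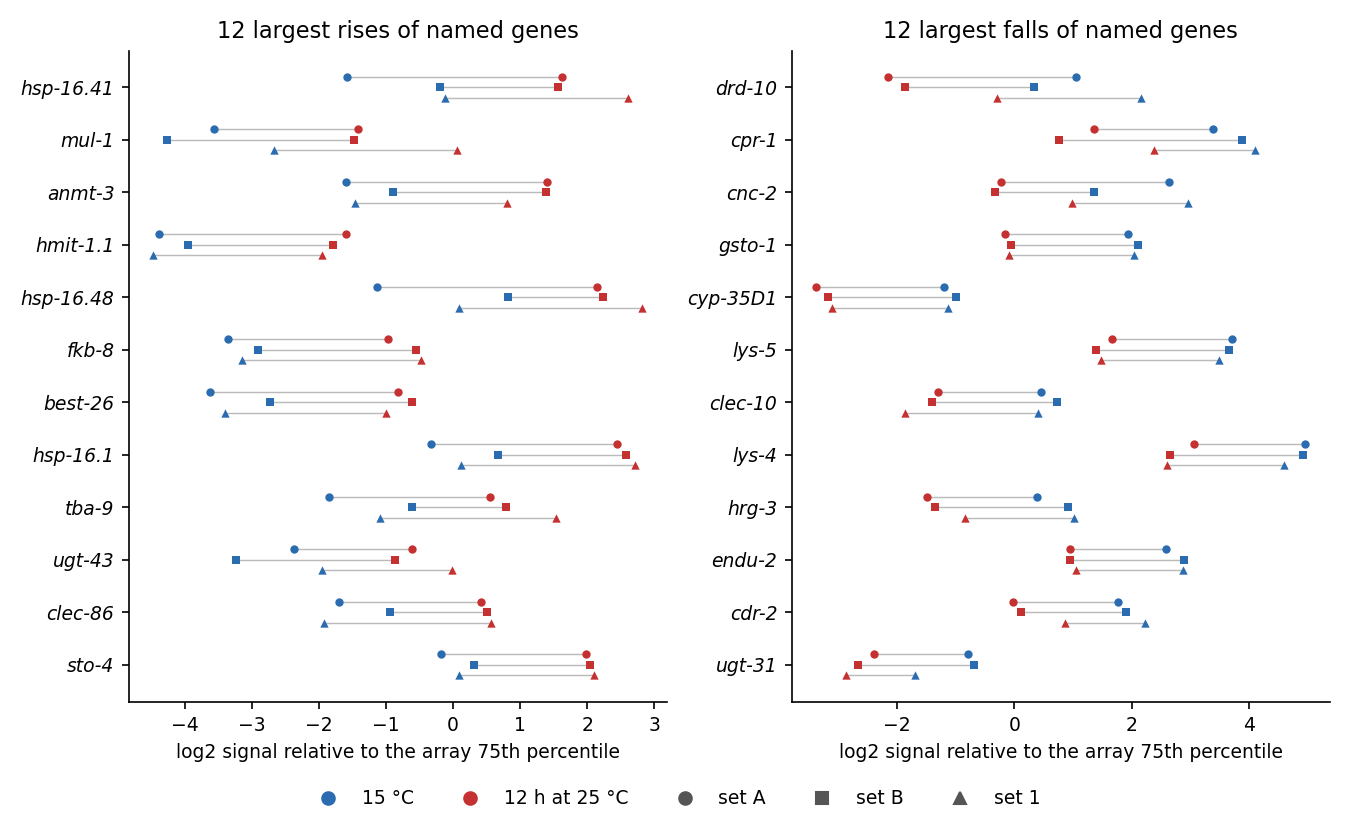
Log2 signal of the 12 genes with the largest rises (left) and the 12 with the largest falls (right) on each array, among changed genes with a symbol that were well above background on all 6 arrays; blue marks 15 °C, red 12 h at 25 °C, and a line joins the arrays of a set. Groups that did not overlap were required of the genes shown, so the separation of red from blue points was fixed by the choice.

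Secreted proteins of digestion and defence made up 5 of the 12 largest falls. Lysozymes cut bacterial cell walls and saposin-like proteins disrupt bacterial membranes. Of 33 such genes tested, 4 fell and 0 rose (12.1%, beside 0.786% of all genes lower), with a median log2 change of −0.39. The lysozyme gene lys-4 was among the brightest genes that fell, with signals of 4.96, 4.92 and 4.6 at 15 °C and 3.06, 2.66 and 2.61 at 12 h, which is 4.14-fold lower (log2 change −2.05 ± 0.25, SE; adjusted p = 0.00335). For lys-5 the signals were 3.71, 3.66 and 3.49 against 1.67, 1.39 and 1.48, which is 4.31-fold lower (adjusted p = 0.00117). The invertebrate-type lysozyme ilys-2 was 2.59-fold lower and the saposin-like gene spp-25 was 2.17-fold lower. Under the replicate block 9 of the 33 fell, adding lys-6, ilys-5, ilys-6, spp-4 and spp-23. The brightest of these, ilys-5, had signals of 7.47, 7.37 and 7.45 at 15 °C and 6.49, 6.34 and 6.32 at 12 h, with an adjusted p of 0.112 without the block and 0.0487 with it. Leaving out single arrays left 2 of the 33 called.

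Some proteases of the gut and of lysosomes fell as well. The cathepsin B-like protease gene cpr-1, expressed in the intestine, had signals of 3.39, 3.88 and 4.11 at 15 °C and 1.37, 0.76 and 2.38 at 12 h, which is 4.90-fold lower (adjusted p = 0.0146). Its relative cpr-8 was 2.65-fold lower (adjusted p = 0.0162). These were 2 of 7 tested genes of the family (28.6%), and the other 5 had log2 changes below 0 that did not pass, between −2.52 for cpr-4 and −0.26 for cpr-6. With the replicate block cpr-4 also fell (adjusted p = 0.0487, against 0.274 without it), which made 3 of the 7. Leaving out single arrays gave 0 to 2 calls in this family. The aspartyl protease asp-3, related to cathepsin D and one of the brightest genes that changed, was 1.73-fold lower, from 6.50, 6.66 and 6.74 to 5.70, 5.81 and 6.01 (adjusted p = 0.0257), and its 4 other probes had log2 changes between −0.88 and −0.58. It was the only one of 13 aspartyl proteases called, and asp-14 also fell with the block. The astacin metalloprotease nas-20 was 2.66-fold lower, the only one of 15 astacins called, and nas-31 also fell with the block. In whole-animal RNA, fewer cells of a type and less RNA per cell cannot be told apart. The summed signal of the 12 tested intestine markers, which include asp-3, was 560, 419 and 803 times the 75th percentile at 15 °C and 450, 527 and 607 times at 12 h, so the groups overlapped. The set B sum at 15 °C lacks the yolk gene vit-2, whose spot there was left out as uneven.

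Of 22 antimicrobial peptide genes, 1 fell (4.55%, beside 0.786% of all genes) and 0 rose, with a median log2 change of −0.67. The caenacin gene cnc-2, which encodes a peptide known from the epidermal response to fungi, had signals of 2.64, 1.35 and 2.96 at 15 °C and −0.22, −0.33 and 0.98 at 12 h, which is 4.52-fold lower (adjusted p = 0.0411), and its 5 other probes had log2 changes between −2.40 and −1.91. The replicate block gave 4 falls, adding cnc-7, nlp-24 and nlp-28, and with single arrays left out between 0 and 2 fell. C-type lectins are a large family, many of which bind sugars on microbes. Of 101 tested, 3 rose (2.97%, beside 1.85% of all genes) and 3 fell (2.97%, beside 0.786%), and the median log2 change was 0.00. With the block 7 rose and 8 fell, where 5.09% of all genes rose and 2.48% fell. The brightest to fall and the brightest to rise were clec-10, from 0.46, 0.72 and 0.40 to −1.31, −1.40 and −1.86 (4.14-fold lower; adjusted p = 0.00185), and clec-266, from −0.75, −0.71 and 0.29 to 1.07, 1.11 and 2.30 (3.69-fold higher; adjusted p = 0.0378). Also higher were clec-86 (4.04-fold) and clec-227 (2.69-fold), and also lower were clec-70 and clec-143, each well above background on 1 of the 3 arrays at 12 h.

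Among enzymes that process foreign and endogenous small molecules, some genes rose and some fell. UDP-glucuronosyltransferases attach sugars to lipophilic compounds. Of 59 tested, 6 rose (10.2%, beside 1.85% of all genes) and 3 fell (5.08%), and the median log2 change was 0.41. The gene ugt-44 had signals of 1.07, 1.06 and 1.16 at 15 °C and 2.17, 2.00 and 2.00 at 12 h, a 1.95-fold rise (adjusted p = 0.0144). Larger rises came from dimmer genes, such as ugt-51 (2.69-fold), ugt-8 (2.30-fold) and ugt-3, which rose 5.18-fold but passed the background limit on 1 cool array alone. The falls were ugt-31 (3.00-fold lower), ugt-21 (2.50-fold lower) and ugt-24 (1.89-fold lower). The replicate block gave 15 rises and 5 falls, and with single arrays left out between 2 and 7 rose and between 0 and 3 fell. Median centring left 3 rises and 0 falls. The median by set was 0.64, 0.07 and 0.38, so it was smallest in set B.

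Among 44 glutathione transferases, which conjugate electrophiles to glutathione, 1 rose (2.27%, beside 1.85% of all genes) and 2 fell (4.55%, beside 0.786%). The omega-class gene gsto-1 had signals of 1.94, 2.11 and 2.05 at 15 °C and −0.16, −0.06 and −0.09 at 12 h. These sets were close to each other at both temperatures, and the gene was 4.39-fold lower at 12 h (adjusted p = 0.00534). Also lower was gst-41 (2.01-fold), with gst-10 added by the block, and gst-44 was 2.48-fold higher. Of 56 cytochromes P450, 1 rose and 1 fell (1.79% each, beside 1.85% and 0.786% of all genes). The one that fell, cyp-35D1, had signals of −1.20, −0.99 and −1.13 at 15 °C and −3.37, −3.17 and −3.10 at 12 h, which is 4.32-fold lower (adjusted p = 0.00558), and the one that rose, cyp-29A3, was 2.09-fold higher. Under the block 3 P450 genes rose and 1 fell. Short-chain dehydrogenases had 2 rises, dhs-7 and dhs-8 (7.14%), and 1 fall (3.57%) among 28. The fall, dhs-26, was from −2.35, −1.10 and −1.76 to −4.99, −4.66 and −4.08 (7.16-fold lower; adjusted p = 0.00896), where 2 of the 3 arrays were well above background. The block gave 4 rises and 2 falls among these dehydrogenases.

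Of 22 genes of metal and heme handling, 2 fell (9.09%, beside 0.786% of all genes) and 0 rose. With the replicate block 4 fell, adding cdr-1 and hrg-4, and 2 rose, hrg-6 and hrg-10. The gene hrg-3 encodes a small secreted peptide that carries heme from the intestine to other tissues, including embryos. Its signals were 0.39, 0.91 and 1.02 at 15 °C and −1.49, −1.35 and −0.83 at 12 h, which is 4.0-fold lower (adjusted p = 0.0097). The other, cdr-2, of the cadmium-responsive family, was 3.13-fold lower, from 1.76, 1.90 and 2.22 to −0.02, 0.11 and 0.86 (adjusted p = 0.0174). The endoribonuclease homolog endu-2 was 3.48-fold lower, from 2.58, 2.89 and 2.88 to 0.95, 0.95 and 1.05 (log2 change −1.80 ± 0.17, SE; adjusted p = 0.00102). The spread between the 3 arrays was small in both groups. The largest fall among the named genes well above background throughout was that of drd-10, a gene named for its fall under dietary restriction, from 1.06, 0.34 and 2.16 to −2.16, −1.86 and −0.29 (6.15-fold lower; adjusted p = 0.0427). The metallothionein gene mtl-1 had a log2 change of 1.97 ± 0.88 (adjusted p = 0.317), with its set 1 arrays far above the others at −1.92 and 0.15.

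F-box proteins are substrate adaptors that deliver other proteins to ubiquitin ligases, and the worm has an unusually large number of them. The median change of their transcripts was above 0 in all 3 sets. The median log2 change of 247 tested F-box genes was 0.49, beside 0.03 over all genes, and it was 0.51, 0.51 and 0.44 in sets A, B and 1. Across 22 settings of the processing the list median lay between 0.24 and 0.65. A change above 0 was found for 194 of the 247 (78.5%), beside 53.2% of all genes. Only 165 F-box genes had clear signal on every compared array, beside 11388 of all 13481 genes. The others could be kept for clear signal in 1 group alone, which can favour genes that were brighter there. How far this filter raised the share above 0 and the median was not tested. Of the 247, 8 rose (3.24%, beside 1.85% of all genes) and 2 fell (0.81%, beside 0.786%), and with the replicate block 30 rose and 4 fell, where 5.09% of all genes rose and 2.48% fell. The 94 fbxb genes had a median of 0.92, with none called, and 10 rising with the block. The median of the 40 fbxc genes was 0.41 and that of the 113 fbxa genes was 0.17, although 7 of the 8 rises were fbxa genes. Differences between the subfamilies were not tested, and near-identical F-box genes can share probe signal.

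Most of these genes were dim. The brightest to rise among those named was fbxa-95, from 0.29, 0.00 and 0.28 to 1.36, 1.67 and 1.22 (2.34-fold; adjusted p = 0.0271), followed by fbxa-64, from −0.81, −0.74 and −0.46 to 0.01, 0.03 and 0.29 (1.71-fold; adjusted p = 0.0216). The larger rises of fbxa-16 (4.67-fold) and fbxc-34 (7.12-fold) started from signals that passed the background limit on 1 cool array each. Lower at 12 h were fbxa-91 (2.44-fold) and fbxa-143 (2.2-fold). Leaving out single arrays gave between 1 and 7 rises and 0 falls, median centring gave 3 rises, and a fit with only sets A and B gave 29. The BATH and MATH proteins, another group of ubiquitin ligase adaptors, had 2 rises and 2 falls among 66 (3.03% each, beside 1.85% and 0.786% of all genes). Both rises were bath genes, bath-21 (3.68-fold; adjusted p = 0.00205) and bath-24 (1.82-fold), and both falls were math genes, math-10 (2.92-fold lower; adjusted p = 0.00442) and math-14 (2.49-fold lower). With the block 5 of the 66 rose and 3 fell.

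Nuclear hormone receptors are transcription factors that can be controlled by small lipophilic ligands, and the worm family is greatly expanded. Of 177 tested, 11 rose (6.21%, beside 1.85% of all genes) and 1 fell (0.565%, beside 0.786%). The median log2 change was 0.22, and 0.26, 0.13 and 0.37 by set. The rises named here were the 4 with the lowest adjusted p, a choice that favours close replicates. In nhr-65 the signals were −1.59, −1.59 and −1.62 at 15 °C and −0.57, −0.58 and −0.49 at 12 h, a 2.08-fold rise (log2 change 1.06 ± 0.13, SE; adjusted p = 0.00338). In nhr-116 they were −3.39, −3.10 and −3.22 against −2.15, −1.95 and −1.85, a 2.39-fold rise (adjusted p = 0.00205). A 2.45-fold rise was measured for nhr-145, and nhr-125 rose 4.40-fold from a level that passed the background limit on 1 cool array. The member that fell was nhr-168 (1.69-fold lower; adjusted p = 0.0489). The replicate block gave 28 rises and 6 falls, where 5.09% of all genes rose and 2.48% fell. Leaving out single arrays gave between 7 and 9 rises and 0 falls, but median centring left 3 rises.

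A few developmental transcription factors of the homeobox family rose as well. Of 45 ceh genes, 3 rose (6.67%, beside 1.85% of all genes) and 0 fell. A change above 0 was found for 33 (73.3%, beside 53.2%), with a median of 0.35 (0.26, 0.56 and 0.43 by set). Only 32 had clear signal on every compared array, so the limit given for the F-box list holds here. The gene ceh-43, a relative of Distal-less that acts in the embryonic head epidermis, had signals of −2.59, −2.56 and −2.44 at 15 °C and −1.64, −1.59 and −1.42 at 12 h, a 1.97-fold rise (adjusted p = 0.0206). The engrailed relative ceh-16, a regulator of seam cells, rose 3.62-fold, from −4.15, −5.12 and −4.75 to −3.19, −2.67 and −2.59 (adjusted p = 0.0119). It was well above background on 2 arrays at 15 °C and 3 at 12 h, and its log2 change lay between 0.99 and 2.30 across settings. The NK-2 class gene ceh-27 rose 3.04-fold, but it was well above background on 1 array at 15 °C, and its log2 change lay between 0.72 and 1.82 across settings. Under the replicate block 11 rose and 0 fell (beside 5.09% and 2.48% of all genes), among them ceh-13, the labial-type Hox gene, and ceh-32, of the sine oculis class; with single arrays left out between 0 and 5 rose. The proneural factor hlh-14, of the Achaete-scute class, rose 2.65-fold, from −4.19, −4.67 and −3.87 to −3.04, −2.91 and −2.56 (adjusted p = 0.0145). It was well above background on 2 arrays at 15 °C and 3 at 12 h, and its log2 change lay between 0.73 and 1.59 across settings. Of 11 helix-loop-helix genes hlh-14 was the only one called, with hlh-11 added by the block.

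Genes first transcribed in the early embryo had a median change above 0, while few of them passed singly. The list of 45 early zygotic genes (sdz, vet and pes) had a median log2 change of 0.71, with 0.69, 0.77 and 0.61 by set, and 41 of the 45 were above 0 (91.1%, beside 53.2% of all genes). The list median lay between 0.39 and 0.90 across 22 settings. Only sdz-6 rose (2.22% of the list, beside 1.85% of all genes), from −6.50, −6.52 and −6.09 to −1.85, −2.44 and −2.16 (18.6-fold; adjusted p = 0.00094), and it was well above background on 1 array at 15 °C and on 3 at 12 h. Its log2 change lay between 1.93 and 4.37 across settings. With the replicate block 5 rose (where 5.09% of all genes rose), adding pes-1, sdz-28, sdz-29 and sdz-38. The shifts of sdz-28 were from −1.40, −1.86 and −1.03 to −0.14, −0.49 and 0.15, with an adjusted p of 0.0822 without the block and 0.0438 with it. The summed signal of 7 tested markers of early embryo RNA, several of them maternal, was 43.6, 32.5 and 37.1 at 15 °C and 37.4, 37 and 29 at 12 h, and 0 of the 7 were called. The part that the number or age of embryos in the worms had in the homeobox and zygotic values was not tested.

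Of genes well above background on no array at 15 °C, 2 with a symbol were called. The gene idpp-6 had signals of −7.17, −5.97 and −7.57 there and −4.43, −4.45 and −4.59 at 12 h, where it was well above background on all 3 arrays, and it was at least 2.52-fold higher (adjusted p = 0.0119). That bound compares the mean 12 h signal with the dimmest signal that counted as well above background on each 15 °C array, or with the gene's own signal where that was higher. The forkhead gene let-381, a regulator of mesoderm development, was well above background on 1 array at 12 h, its set 1 spot at 15 °C was left out as uneven, and the bound was at least 1.03-fold (adjusted p = 0.0332).

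Among the listed lipid genes, the rises were those of a desaturase and of acyl-CoA synthetases. The delta-12 desaturase fat-2 turns oleic into linoleic acid and so starts the synthesis of polyunsaturated fatty acids. Its signals were 4.89, 4.89 and 4.70 at 15 °C and 5.9, 5.75 and 5.70 at 12 h, a 1.94-fold rise (log2 change 0.96 ± 0.13, SE; adjusted p = 0.00558), and it was among the brightest genes that rose. It was the only one of 13 desaturases and elongases called. The delta-9 desaturases, which make the oleic acid that FAT-2 uses, and their regulators were not called, 0 of 12. For fat-7 the signals were 2.69, 2.60 and 1.01 at 15 °C and 0.91, 0.57 and −1.20 at 12 h. All 3 sets were lower by a similar amount while set 1 was low at both temperatures, and the log2 change was −2.01 ± 0.84 (SE; adjusted p = 0.278), or an adjusted p of 0.032 with the replicate block. In fat-6 the signals were 3.47, 3.82 and 3.57 against 3.99, 3.90 and 3.96 (log2 change 0.33 ± 0.15; adjusted p = 0.305). Those of fat-5 overlapped, with a log2 change of −0.27 ± 0.31 (adjusted p = 0.788). Neither paqr-2, a membrane fluidity sensor, nor mdt-15, a Mediator subunit that drives desaturase transcription, was called, with log2 changes of −0.31 ± 0.34 and −0.09 ± 0.16. The acyl-CoA synthetase genes acs-3 (1.82-fold) and acs-21 (2.08-fold) rose among 19 tested (10.5%, beside 1.85% of all genes). Each of these calls was kept in only 1 of the 6 fits that left out a single array. The trehalase gene tre-5 was 5.91-fold lower but well above background on 1 array at 12 h. Of 10 genes of trehalose and glycerol metabolism tre-5 was the only one called, and with the block gpdh-1 and tre-2 also rose.

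No insulin-like signalling gene was called without the replicate block. The receptor gene daf-2 had a log2 change of 0.18 ± 0.51 and the factor gene daf-16 one of −0.13 ± 0.13 (adjusted p = 0.928 and 0.752), and 0 of 17 genes of the pathway were called, against 1 rise with the block, that of ftt-2. Of its known outputs, the superoxide dismutase gene sod-3 had a log2 change of 0.53 ± 0.24 (adjusted p = 0.321). Among 30 insulin-like peptide genes none was called. The peptide gene ins-7 had signals of −2.90, −2.40 and −1.81 at 15 °C and −1.47, −1.29 and 0.65 at 12 h, groups that did not overlap (log2 change 1.67 ± 0.57; adjusted p = 0.173), and its adjusted p with the replicate block was 0.0173. Falls of ins-29 and ins-30 were added by the block as well. The peptide gene daf-28 had a log2 change of −0.02 ± 0.35. The guanylyl cyclase genes of the AFD thermosensory neurons were near background. For gcy-23 the log2 change was 0.86 ± 0.39 (adjusted p = 0.32) and for gcy-8 it was 0.48 ± 0.54 (adjusted p = 0.787). The symbols gcy-18 and tax-4 were not found among the tested genes, and 0 of 13 thermosensory signalling genes were called. With the block 1 of the 13 fell, the G protein gene gpa-1 (adjusted p = 0.0208, against 0.0673 without it). The yolk protein gene vit-2 had signals of 7.22 and 7.98 on the 2 usable arrays at 15 °C and 6.97, 7.45 and 7.87 at 12 h (log2 change −0.17 ± 0.43).

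Several smaller families had 1 or 2 called members. Over all genes 1.85% rose and 0.786% fell, or 5.09% and 2.48% with the replicate block. Claudin-like genes, whose relatives in other animals seal junctions between epithelial cells, had 2 rises among 20, clc-2 (1.93-fold) and clc-4 (6.56-fold, well above background on 1 array at 15 °C). Degenerin channel genes had 2 rises among 12, del-5 (1.65-fold) and egas-3 (6.63-fold, likewise dim at 15 °C). Falls among 48 hedgehog-related and patched-related genes were ptc-2, from 0.67, 0.15 and 0.56 to −0.40, −0.58 and −0.31 (1.85-fold lower; adjusted p = 0.0314), and ptr-24 (1.71-fold lower). The secreted SCP-like gene scl-24 rose 18.7-fold, from −6.17, −6.24 and −5.29 to −3.13, −2.30 and 0.42, and was well above background on 1 array at 15 °C, with a log2 change between 2.5 and 4.96 across settings. Single rises were found for the transthyretin-related gene ttr-37 (2.14-fold) among 49 and for the histone gene his-11 (2.07-fold) among 46, whose copies are near-identical and can share signal. The pals gene pals-23 was 2.16-fold lower among 16. Of 136 cuticle collagens, col-158 rose 3.54-fold and col-40 was 4.93-fold lower, well above background on 1 array at 12 h. With the block the counts of rises and falls were 4 and 0 for claudin-like, 3 and 0 for degenerin, 1 and 2 for hedgehog-related, 2 and 1 for SCP-like, 2 and 0 for transthyretin-related, 4 and 0 for histone and 2 and 1 for pals genes, and the bZIP factors zip-8, zip-10 and zip-12 rose, of 11 tested. The PUF-family gene puf-9 rose 1.55-fold by its brightest probe, while its other probe had a log2 change of −0.11.

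**Figure D3:**
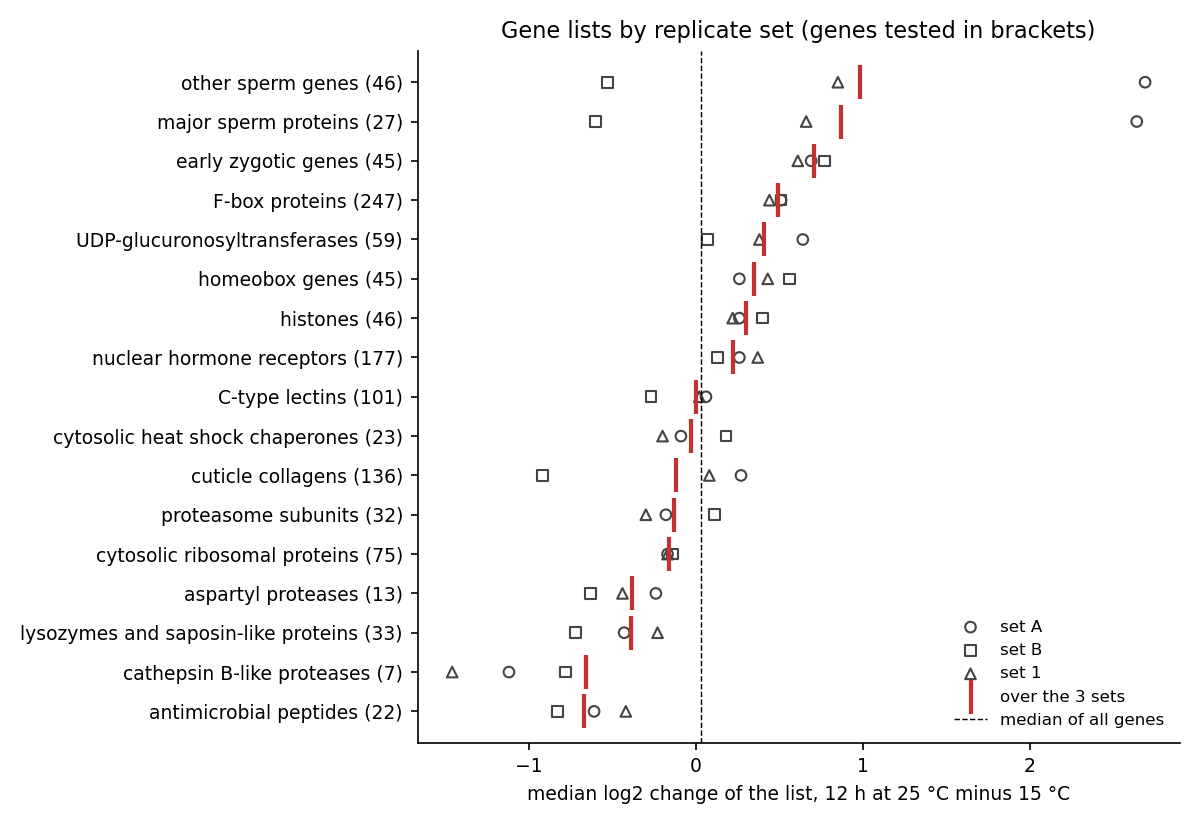
Median log2 change, 12 h at 25 °C minus 15 °C, of 17 gene lists; open symbols are the medians within replicate sets A, B and 1, red bars the medians of the change averaged over the sets, and the dashed line the median of all genes (0.03). Early zygotic and F-box lists have closely spaced sets above 0, while both sperm lists and the cuticle collagens have set B on the other side of 0 from set A.

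Bright housekeeping families had small median changes, and 0 members were called. The median log2 change was −0.16 for 75 cytosolic ribosomal protein genes (−0.00 with quantile normalization), −0.13 for 32 proteasome subunits and 0.14 for 38 genes of oxidative phosphorylation. A change above 0 was found for 13.3%, 9.38% and 65.8% of these lists in turn, beside 53.2% of all genes. By set the medians were −0.17, −0.14 and −0.17 for ribosomal and −0.18, 0.11 and −0.30 for proteasome genes. The 2 groups did not overlap for 22 lower and 1 higher ribosomal genes, beside 7.93% and 12.8% of all genes. Sperm genes, in contrast, differed between the sets. Major sperm proteins form the cytoskeleton of the crawling sperm. Their median log2 change was 2.64 in set A, −0.60 in set B and 0.66 in set 1, and 0 of 27 were called. Of 46 other sperm genes only spe-6, a kinase gene of sperm formation, was called (2.2-fold higher; adjusted p = 0.0341).

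The set B array at 15 °C stood apart by its sperm markers. The summed signal of 11 tested sperm markers was 24.7, 514 and 27.2 times the 75th percentile at 15 °C and 158, 355 and 43.8 times at 12 h. The cuticle collagens, with a median of −0.12, had medians of 0.27, −0.92 and 0.08 in the same sets. For the other 9 tissue marker lists the summed signals of the 2 groups overlapped, except for neurons, whose 7 tested markers summed to 28.3 to 30.2 at 15 °C and 32.6 to 35.6 at 12 h with none of them called. Across these lists asp-3 was the only marker called, and 5 neuronal, 3 sperm and 2 embryonic markers were among those not found among the tested genes. Markers were looked up by symbol, and whether the missing ones had a probe that failed the signal filter was not checked. The part of the sperm content of set B in the spread of other genes was not tested. With the 15 °C array of set B left out, 204 genes changed, of which 177 were among the 355.

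**Figure D4:**
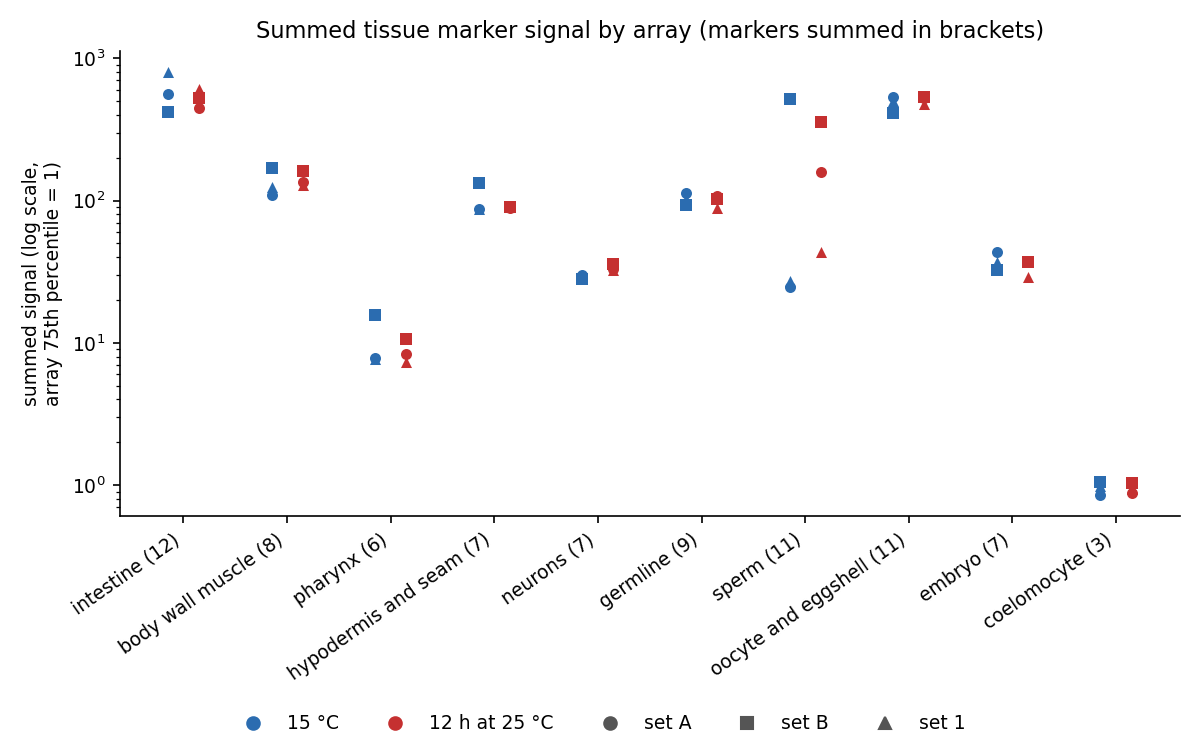
Summed signal of marker genes of 10 tissues on each of the 6 arrays, on a log scale where 1 is the 75th percentile of the array; blue marks 15 °C and red 12 h at 25 °C, and the shape gives the set. Sperm markers span 24.7 to 514 at 15 °C, far more than the markers of any other tissue.

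The 12 h values can be set beside those taken after 3 h at 25 °C, which share the same 15 °C arrays. In the same fit 138 genes differed between 3 h and 15 °C (1.02%) and 282 between 12 h and 3 h (2.09%), against 319 (2.37%) and 731 (5.42%) with the replicate block. Of the 355 genes changed at 12 h, 107 also differed between 12 h and 3 h, the test of whether the change from 15 °C had itself altered. The 355 were chosen with the same 12 h arrays, so the choice itself favours a difference from 3 h in the same direction. The count of 107 and the later rises and falls below carry this limit. Counted among the changed genes of each fit, it was 368 of 1020 with the replicate block and 47 of 137 when the 15 °C array of set A was left out. It was 23 of 257 and 22 of 299 without the 3 h array of set A or B, and 16 of 132, 16 of 129 and 26 of 203 without the 12 h array of sets A, B and 1 in turn.

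Of the hsp-16 genes raised at 12 h, 2 were lower at 12 h than at 3 h. The log2 change from 15 °C of hsp-16.1 was 4.54 at 3 h and 2.43 at 12 h, a difference of −2.11 ± 0.26 (SE; adjusted p = 0.00805). For hsp-16.48 it was 4.68 and 2.48 (difference −2.2 ± 0.46; adjusted p = 0.0412), and for hsp-16.41 it was 4.92 and 2.57, with an adjusted p of 0.0527 that did not pass, or 0.00756 with the block. Genes with a later rise included fkb-8, at 0.54 after 3 h and 2.48 after 12 h (difference 1.94 ± 0.20; adjusted p = 0.00526), and hmit-1.1, at 1.24 and 2.49 (adjusted p = 0.0411). Later falls were found for lys-4 and lys-5, at −0.28 and −0.30 after 3 h and −2.05 and −2.11 after 12 h (adjusted p = 0.0134 and 0.00612), for cpr-1, at −0.32 and −2.29 (adjusted p = 0.0384), and for cdr-2, at 0.39 and −1.65 (adjusted p = 0.0134).

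For other genes no difference between 3 h and 12 h was resolved. The log2 changes at 3 h and 12 h were 2.18 and 2.51 for anmt-3, −2.03 and −2.14 for gsto-1, −2.42 and −2.11 for cyp-35D1, −2.39 and −2.0 for hrg-3, −1.67 and −1.80 for endu-2 and 1.86 and 2.03 for ugt-43. Their differences had standard errors of 0.17 to 0.38 and did not pass, with adjusted p between 0.752 and 1, which does not show that the 2 times were alike. The developmental factors ceh-43, ceh-16 and hlh-14 were higher at 12 h than at 3 h. At 3 h ceh-16 and hlh-14 were each well above background on 2 arrays, so they passed the signal filter only through 12 h groups. The difference was 1.47 ± 0.18 for ceh-43 (adjusted p = 0.00805), 2.04 ± 0.30 for ceh-16 (adjusted p = 0.0157) and 1.92 ± 0.24 for hlh-14 (adjusted p = 0.00805), and their log2 changes from 15 °C at 3 h were −0.49, −0.19 and −0.52. Of the 45 early zygotic genes 13 were higher at 12 h than at 3 h and 0 were lower (beside 1.53% and 0.564% of all genes), or 16 and 0 with the replicate block, and the list's median change from 15 °C was −0.41 at 3 h and 0.71 at 12 h. Of the 247 F-box genes 26 were higher and 2 lower, or 68 and 5 with the block, with medians of −0.16 and 0.49. With the block 536 of all 13481 genes were higher at 12 h than at 3 h and 195 were lower.

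**Figure D5:**
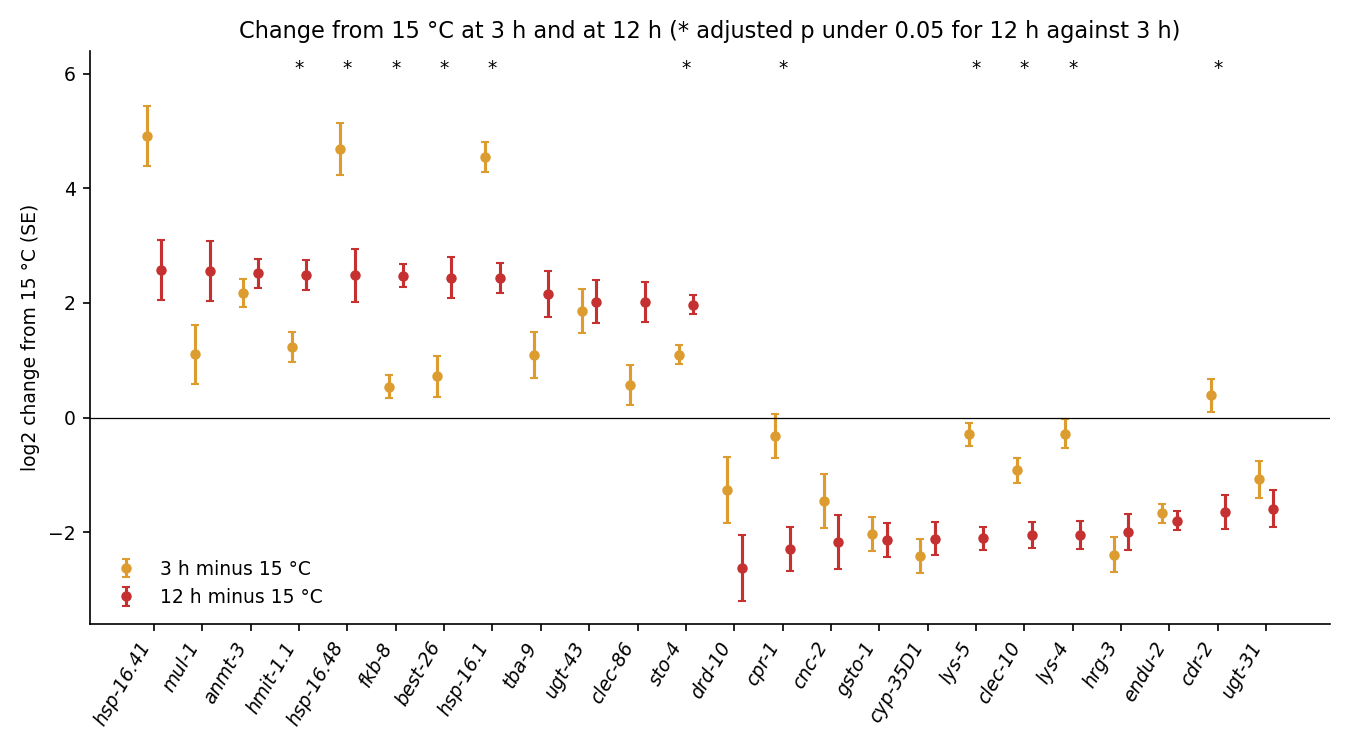
Log2 change from 15 °C at 3 h (ochre) and at 12 h (red) for the 24 genes with the largest changes at 12 h, with the standard error of the fit as bars; an asterisk marks genes whose 12 h and 3 h arrays differed at an adjusted p under 0.05. The hsp-16 genes are higher at 3 h than at 12 h, and lys-4, lys-5 and cpr-1 are near 0 at 3 h.

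By chromosome, changed genes made up 4.71% of the 2653 tested genes of chromosome V (91 higher and 34 lower), 2.89% on X, 2.38% on II, 2.29% on IV, 1.86% on III and 1.31% of the 2218 on I. Differences between chromosomes were not tested. Of the 355 changed genes 344 were annotated as protein coding, 10 as pseudogenes and 1 as noncoding, and 165 had a sequence name only. Genes on any of the 50 lists made up 87 of the 355 changed and 1860 of the 13481 tested, so 268 changed genes were on no list.

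Single arrays decided many of the calls on named genes. Of 86 named genes that changed, 27 were called with any one of the 6 arrays left out. These were hsp-16.1, anmt-3, hmit-1.1, fkb-8, best-26, sto-4, egas-3, sdz-6, bath-21, fbxa-16, ugt-3, ugt-51, nhr-65, nhr-116, nhr-125, nhr-145 and fat-2 among the rises. Among the falls they were gsto-1, cyp-35D1, lys-4, lys-5, clec-10, hrg-3, endu-2, dhs-26, math-10 and col-40. The calls of hsp-16.41, ilys-2, spp-25, clec-143, cyp-29A3, dhs-7, fbxa-91, fbxa-95, fbxa-143, his-11, nhr-168, puf-9 and ttr-37 were lost whichever of the 6 arrays was left out, and all 86 kept the sign of their change.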

How the data were processed

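Total RNA from whole adult worms was measured on single-colour Agilent arrays. Per the labels' protocols, 100 ng of RNA was amplified to Cy3-labelled cRNA. Per the file headers, spots were read with Agilent Feature Extraction 10.10.1.1. The deposited processed signal is an intensity on a linear scale with background subtracted and no scaling between arrays, and deposited flags of other kinds (0 or 1) mark uneven and poorly detected spots. A table of intensity values for the whole series, also deposited, differs from these signals by 1 factor for each array (largest gap 0.0373 in log2 units); the sources used here do not give how the authors set those factors or picked the probes.

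From the 45220 spots of an array, 1417 controls were left out and 51 to 119 uneven spots of the 6 arrays were set to missing, and 0 were saturated. Signals were taken to log2 and set relative to the array's 75th percentile, and spots of a probe were averaged. Of 43603 probes, 34320 were paired with 1 gene by name or accession (WBcel235 annotation, names only) and 9283 matched none. A probe was kept if it was well above background on every array of 1 group or more, and the brightest probe stood for a gene, which left 13481 genes. One mean per group was fitted to all 12 arrays, the daf-2 arrays included, with limma 3.58.1 in R 4.3.3, and p-values were adjusted by Benjamini and Hochberg. Summed marker signals were taken over the markers tested. Further steps used numpy 2.4.6, pandas 2.3.3 and matplotlib 3.10.9 under Python 3.11.15. On simulated arrays, drawn without differences between sets, the fit called 4.48%, 19.4% and 77.3% of genes given log2 changes of 0.5, 1 and 2. Of the 71 calls there, 4 were false. The arrays used here do differ by set, so these shares may not hold for them. A gene that was not called may still have changed. The number of arrays limits the precision.

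The titles' set labels each stand for 1 slide. Deviations from the group means of same-set arrays correlated at 0.513, 0.775 and 0.803 for sets A, B and 1, so the sets pair the arrays. The fit with the set as a replicate block called 1020 genes. It is given beside gene calls and list counts where it changes a call or moves a count by more than 1.5 times. Counts by chromosome and biotype are given without it. The fit without the set is the main one, although it leaves this pairing out. Its standard errors therefore include differences between sets. All 355 of its calls were also made with the block.

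The comparison and the gene lists were chosen with earlier results of these data known. Genes were named by 4 rules: the 12 top genes in each direction by size of change, among changed genes with a symbol, groups that did not overlap and signal well above background on all 6 arrays; changed genes well above background on no array of the dimmer group; up to 4 changed members per list and direction, by adjusted p; and 22 set genes, whether or not they passed. Other genes in the text (hmit-1.2, hmit-1.3, hsp-1, hsp-16.20, hsp-16.21, xbp-1, cpr-4, cpr-6, genes gained with the block and the eif-3, ctsa and nspc families) were chosen after their values were seen. Alternatives covered other scalings, background corrections, filters, probe rules, blocks, array weights, variance priors, fold limits, samples in the fit and arrays left out.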

Additional observations from a re-analysis of the deposited data

Results flagged for a closer look

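For 31 named genes the change from 15 °C differed between 3 h and 12 h, by the direct test of the 12 h against the 3 h arrays in the limma fit at an adjusted p under 0.05. Many of them were named by their change at 12 h, which uses the same 12 h arrays. With the replicate block other named genes passed this test too, among them hsp-16.41, mul-1 and clec-86 (adjusted p = 0.00756, 0.0101 and 0.0325). Further ones were ugt-3, clc-2, ptc-2, let-381 and fat-7 (adjusted p = 0.0252, 0.0167, 0.0186, 0.0273 and 0.0289). Among heat shock genes the log2 difference, 12 h minus 3 h, was −4.13 for hsp-16.2, −3.56 for hsp-70, −2.20 for hsp-16.48, −2.11 for hsp-16.1 and −0.64 for hsp-4. Of these, hsp-16.2, hsp-70 and hsp-4 did not differ from 15 °C at 12 h past the threshold. Among secreted and intestinal proteins it was −1.97 for cpr-1, −1.81 for lys-5, −1.77 for lys-4, −1.13 for clec-10, −0.80 for asp-3 and 2.25 for clec-266. For enzymes and metal genes it was −2.55 for dhs-26, 1.79 for dhs-8, −1.77 for ugt-21, −2.04 for cdr-2, 1.06 for acs-3 and −0.87 for fat-6. The changes of dhs-8 from 15 °C lay on opposite sides of 0, at −0.59 after 3 h and 1.20 after 12 h, and those of ugt-21 at 0.45 and −1.32.

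For ubiquitin ligase adaptors the difference was 2.48 for fbxc-34, 1.53 for fbxa-16 and 1.43 for bath-21. Among transcription factors and early zygotic genes it was 2.18 for sdz-6, 2.04 for ceh-16, 1.92 for hlh-14, 1.48 for ceh-27, 1.47 for ceh-43, 0.96 for nhr-145 and 0.94 for nhr-116. The remaining values were 1.94 for fkb-8, 1.72 for best-26, 1.26 for hmit-1.1 and 0.87 for sto-4.

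Probes that matched no gene also held signal. Of 3399 such probes tested, 51 changed at 12 h, 32 higher and 19 lower, beside 586 of all 26558 probes tested one by one.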

How the results depend on the processing

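Quantile normalization, normexp background correction, the authors' series table, the stricter filter, the mean of a gene's probes, a variance prior with a trend and a limit of 2-fold kept the count of changed genes between 260 and 397, against 355. Counts outside 1.5 times of 355 were 100 with median centring, 161 with no filter, 586 with every probe by itself, 92 with only the 6 arrays compared, 226 with only the 9 N2 arrays, 803 with array weights and 58 with a tested log2 limit of 0.5. With the replicate block 1020 genes changed as a fixed term and 1124 as a random one. Leaving out single arrays of the 6 compared gave 129 to 234, and single 3 h arrays 257 to 345. Without set A or set B the count was 0 each, and 281 without set 1; with the block, chosen after seeing the data, it was 0, 67 and 433. The count of genes that also differed between 12 h and 3 h, 107 of 355, was, among each setting's own changed genes, 70 with quantile normalization, 22 with median centring, 29 with no filter, 39 with the 9 N2 arrays, 368 and 410 with the fixed and random block, and 16 to 106 with single arrays left out. Without set A or set B it was 0 each, and with the block 0, 1 and 197 without sets A, B and 1. Listed genes among those changed, 87, numbered 34 with median centring, 45 with no filter, 23 and 57 with the 6 and 9 arrays, 220 and 233 with the blocks, and 29 to 56 with single arrays left out; without set A or B it was 0 each, and 0 and 23 with the block. Fits with fewer arrays have fewer degrees of freedom, and the cause of the other shifts was not tested. No gene named by the rules that changed reversed its sign under any alternative that tested it. The share of higher genes was 63.6% to 73.0% across scalings, and the median of all genes moved by less than 0.1. The block changed no other call against 15 °C among the genes named by the rules than those of fat-7 and ins-7. Signal over background limits the dim genes most.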

Other observations

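Some gene groups outside the lists held several changed members, seen only after their values were known, so they are given as values. Over all genes 0.786% were lower and 1.85% higher, or 2.48% and 5.09% with the replicate block. Of 11 tested subunits of translation initiation factor 3, which brings the small ribosomal subunit to messenger RNA, 3 were lower at 12 h and 0 higher. Their median log2 change was −0.46. The falls were eif-3.E, from 1.55, 1.16 and 1.03 to 0.21, 0.30 and −0.32 (log2 change −1.18 ± 0.26, SE; adjusted p = 0.0419), eif-3.I, with −0.86 ± 0.18 (adjusted p = 0.0332), and eif-3.G, with −0.55 ± 0.12 (adjusted p = 0.0354). At 3 h their log2 changes were −0.07, −0.18 and 0.06. Of 7 ctsa genes, serine carboxypeptidases related to lysosomal cathepsin A, 2 were lower. One was the bright ctsa-4.1, from 2.21, 2.34 and 2.27 to 1.02, 0.86 and 1.12 (log2 change −1.28 ± 0.17; adjusted p = 0.00428), and the other was ctsa-3.2, well above background on 1 array at 12 h. Of 17 nspc genes, a nematode-specific family, 3 were lower and 0 higher. With the replicate block 4 of the eif-3, 2 of the ctsa and 4 of the nspc genes were lower and 0 higher.

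Among probes that matched no gene, 3 that share 1 transcript cluster name moved together, with log2 changes of 3.26, 3.31 and 3.34 and signals of −5.06, −3.85 and −5.18 at 15 °C and −1.57, −1.01 and −1.73 at 12 h for the first of them.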
